A study of Homo sapiens with 6 samples.

Results

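Store-operated calcium entry was examined through 10 genes, chosen by symbol from the 58273 genes of the deposited expression table. They were the channel genes ORAI1, ORAI2 and ORAI3, the sensor genes STIM1 and STIM2, the inositol trisphosphate (IP3) receptor genes ITPR1, ITPR2 and ITPR3, and the pump genes ATP2A2 and ATP2A3. The set was built around ORAI1 because ORAI1 was lower in the knockdown libraries than in the wild type ones, so the differences between groups are given below as a description and not as a test of the 10 genes. RNA-seq was run on 3 libraries of ENO1 knockdown cells carrying a short hairpin (shENO1) and on 3 libraries of wild type cells. All 6 were labelled Daudi, the name of a Burkitt lymphoma line of B-cell origin. ENO1 encodes alpha-enolase, an enzyme of glycolysis. The labels name no drug, time point or control hairpin, and the hairpin sequence, the number of hairpins and whether the line was a single clone are not given in the sources used here. The effect of carrying a hairpin vector and the effect of losing ENO1 therefore cannot be told apart. Whether replicates were grown as separate cultures is not stated either, so p-values measure only the spread between these libraries, which may be technical.

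Store-operated calcium entry refills the calcium store of the endoplasmic reticulum. When a surface receptor activates phospholipase C, IP3 opens the IP3 receptors and calcium leaves the store. STIM proteins in the membrane of the reticulum sense the fall in stored calcium and open ORAI channels in the plasma membrane, and SERCA pumps, encoded by the ATP2A genes, return calcium to the store. In lymphocytes and myeloid cells this entry feeds calcineurin and the NFAT transcription factors.

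ENO1 served as the check of the labels. It stood at 212, 242 and 368 FPKM (sequenced fragments scaled by transcript length and library size) in the shENO1 libraries, against 927, 998 and 1747 FPKM in the wild type libraries. The groups did not overlap, and shENO1 held 22.9%, 24.3% and 21.1% of the wild type level in replicates 1, 2 and 3. The labelled cell type was checked as well. Of 11 B-lineage markers, CD79B and POU2AF1 were listed at 0 in all 6 libraries, MS4A1 reached at most 0.101 FPKM and IGHM at most 0.0475 FPKM, and CD37 was the 1 marker above 10 FPKM. Of 12 myeloid markers 9 averaged above 10 FPKM, among them the neutrophil protease gene CTSG, from 236 to 536 FPKM, and the transcription factor gene CEBPA, from 150.3 to 222 FPKM. The myeloid markers MPO and CD14 were near 0, at most 0.161 and 0.375 FPKM. The summed B-lineage markers ran from 85.2 to 106 FPKM in shENO1 and from 92.6 to 128 FPKM in wild type. Most of each B-lineage sum was CD37, from 69.9 to 111 FPKM across the 6 libraries. The summed myeloid markers ran from 912 to 1460 FPKM in shENO1 and from 858 to 1416 FPKM in wild type. The defining B-cell markers thus went against the label, and the samples are called shENO1 and wild type below.

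All 10 genes passed the filter on low values, at least 0.5 FPKM in at least 3 libraries, which 17870 genes passed in all. Across the 6 libraries the lowest value of any of them was 8.66 FPKM and the highest was 130 FPKM. FPKM divides by transcript length, so levels can be set against each other. In bulk RNA, fewer cells that express a gene and less of its RNA per cell cannot be told apart.

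**Figure D1:**
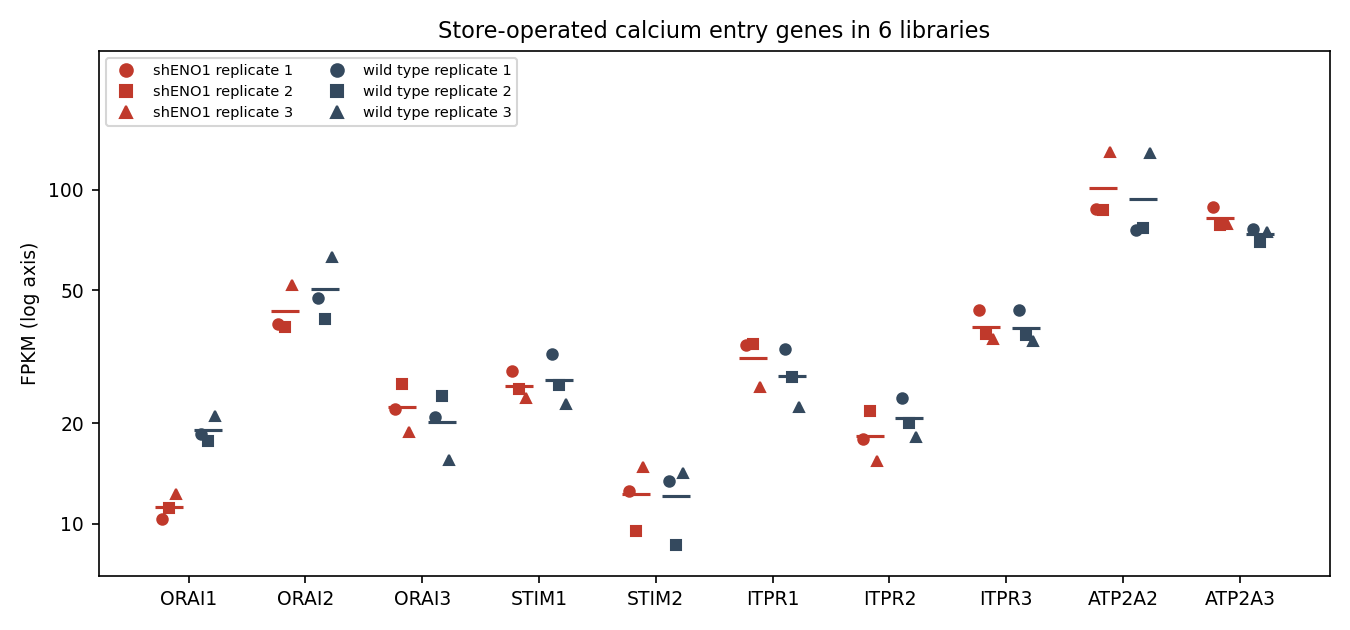
FPKM on a log axis for the 10 genes, with the 3 shENO1 libraries in red at the left of each gene and the 3 wild type libraries in dark blue at the right, a symbol for each replicate number and a bar at the group mean. ORAI1 is separated by group (10.3 to 12.3 FPKM in shENO1, 17.7 to 21.0 FPKM in wild type), while 8 of the other genes overlap between groups and ATP2A3 is separated in the other direction.

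ORAI1 encodes the pore-forming subunit of the calcium release-activated channel. It was at 10.3, 11.2 and 12.3 FPKM in shENO1 replicates 1 to 3, against 18.6, 17.7 and 21.0 FPKM in wild type replicates 1 to 3. Every shENO1 library was below every wild type library, and the gap between the groups was wider than the range within either one. The mean was 11.3 ± 0.964 FPKM in shENO1 and 19.1 ± 1.72 FPKM in wild type (SD, n = 3 each), a ratio of 0.589. The difference on the log2(FPKM + 0.5) scale, on which all log2 differences here were taken, was -0.74 (SE 0.15). Each SE in the text comes from the limma fit that ignores the replicate number, so it includes the spread between replicate numbers. Within libraries of the same replicate number, shENO1 held 55.7%, 62.9% and 58.3% of the wild type level. Of all 17870 genes tested 293 had a more negative log2 difference, and of the 8247 genes that averaged at least 10 FPKM 16 did. ORAI1 was chosen for being lower in shENO1, so these counts only describe its place.

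ORAI1 is ENSG00000276045.2 in the deposited data and ENSG00000276045.3 in GENCODE release 29 (build GRCh38). Release 29 places it on the plus strand at chr12:121626550-121642677, and no other annotated gene overlaps its span. The annotation tags it as a locus with an error in the reference genome sequence, and the sources used here do not say how the gene model behind the deposited values treated that error. The nearest protein-coding genes on either side were KDM2B, a histone demethylase gene, and MORN3. KDM2B, 45535 bases away, was at 66.9, 66.5 and 84.4 FPKM in shENO1, against 62.4, 63.5 and 84.1 FPKM in wild type. MORN3, 6065 bases away, peaked at 0.876 FPKM among the 6 libraries. Neither neighbour separated the groups, with log2 differences of 0.06 (SE 0.17) for KDM2B and 0.05 (SE 0.27) for MORN3.

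ORAI2 and ORAI3 encode channel subunits of the same family. ORAI2 (chr7:102433106-102456821, plus strand) was at 39.7, 38.9 and 51.8 FPKM in shENO1, against 47.3, 41.1 and 62.9 FPKM in wild type. Its groups overlapped, although each shENO1 library was below the wild type library of the same number, and the log2 difference was -0.20 (SE 0.20). ORAI3 (chr16:30949066-30956461, plus strand) was at 22.0, 26.2 and 18.9 FPKM in shENO1, against 20.9, 24.1 and 15.5 FPKM in wild type. The ORAI3 groups overlapped too, each shENO1 library was above its wild type counterpart, and the log2 difference was 0.15 (SE 0.21). Summed over the 3 channel genes, the level was 77.1 ± 5.48 FPKM in shENO1 and 89.7 ± 8.64 FPKM in wild type (SD, n = 3 each).

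The ORAI1 share of the summed ORAI FPKM was close to constant among replicates of each group, and the shares of its relatives were not. The difference in the ORAI1 share between groups rests on the same ORAI1 values for which the set was chosen. ORAI1 made up 14.4%, 14.6% and 14.8% of the summed ORAI FPKM in shENO1 replicates 1 to 3, against 21.4%, 21.4% and 21.2% in wild type replicates 1 to 3. The ORAI2 share ran from 51.0% to 62.5% in shENO1 and from 49.6% to 63.2% in wild type. The ORAI3 share ran from 22.8% to 34.3% in shENO1 and from 15.6% to 29.05% in wild type. ORAI2 was the most abundant ORAI transcript in all 6 libraries. ORAI1 was below ORAI3 in every shENO1 library, with a ratio of ORAI1 to ORAI3 of 0.470, 0.427 and 0.649, against 0.888, 0.736 and 1.36 in wild type.

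**Figure D2:**
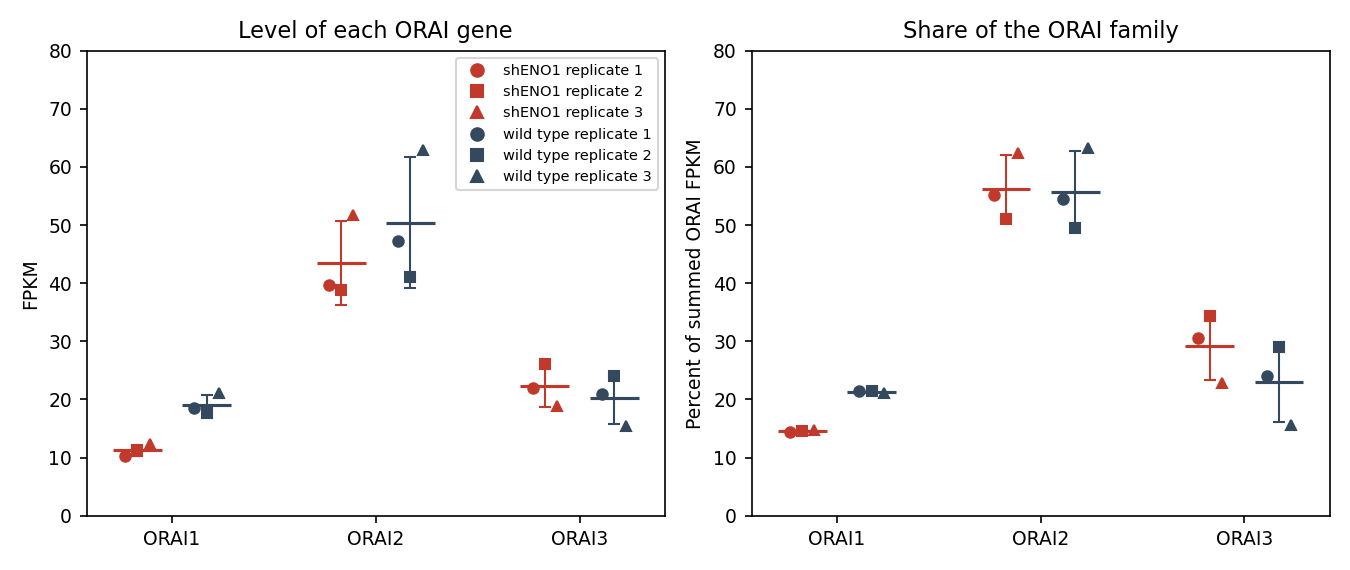
Left, FPKM of the 3 ORAI genes, and right, the percent of the summed ORAI FPKM held by each, with shENO1 libraries in red at the left of each gene and wild type libraries in dark blue at the right (points, libraries; bars, mean and SD, n = 3). The ORAI1 share is near 14.6% in shENO1 and near 21.3% in wild type, with little spread in either group.

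STIM1 and STIM2 encode the calcium sensors of the endoplasmic reticulum, of which STIM2 responds to smaller falls in stored calcium. STIM1 (chr11:3854527-4093210, plus strand) was at 28.7, 25.3 and 23.8 FPKM in shENO1, against 32.2, 26.0 and 22.8 FPKM in wild type. STIM2 (chr4:26857678-27025381, plus strand) was at 12.6, 9.49 and 14.8 FPKM in shENO1, against 13.5, 8.66 and 14.2 FPKM in wild type. Both genes overlapped between groups, with log2 differences of -0.05 (SE 0.17) for STIM1 and 0.03 (SE 0.25) for STIM2. STIM1 held 68.0% ± 5.66 of the summed STIM FPKM in shENO1 and 69.1% ± 6.78 in wild type (SD, n = 3 each). Because ORAI1 differed and STIM1 did not separate the groups, the ratio of STIM1 to ORAI1 was 2.77, 2.27 and 1.94 in shENO1, against 1.74, 1.46 and 1.08 in wild type.

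The 3 IP3 receptor genes encode the channels through which calcium leaves the store. ITPR1 (chr3:4493345-4847840, plus strand) was at 34.2, 34.4 and 25.6 FPKM in shENO1, against 33.3, 27.4 and 22.4 FPKM in wild type. ITPR2 (chr12:26336515-26833198, minus strand) was at 17.9, 21.8 and 15.4 FPKM in shENO1, against 23.9, 19.97 and 18.2 FPKM in wild type. All 3 ITPR1 pairs leaned higher in shENO1 while ITPR2 was lower in pairs 1 and 3 and higher in pair 2, and both genes overlapped between groups. Their log2 differences were 0.18 (SE 0.19) for ITPR1 and -0.17 (SE 0.18) for ITPR2. ITPR3 (chr6:33620365-33696574, plus strand) was at 43.7, 36.9 and 35.6 FPKM in shENO1, against 43.5, 36.7 and 35.3 FPKM in wild type. Within libraries of the same number, ITPR3 in shENO1 stood at 100.3%, 100.7% and 100.9% of wild type, the smallest difference of the 10 genes (log2 difference 0.01, SE 0.14). ITPR3 was the most abundant IP3 receptor transcript in all 6 libraries and held 43.9% ± 3.71 of the summed IP3 receptor FPKM in shENO1 and 44.5% ± 1.80 in wild type (SD, n = 3 each).

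The SERCA pump genes were the most abundant of the 10. ATP2A3, which encodes SERCA3, a form typical of blood cells, lies on the minus strand at chr17:3923870-3964464. It was at 88.4, 78.5 and 79.1 FPKM in shENO1, against 76.1, 69.8 and 74.6 FPKM in wild type. The groups did not overlap, but the lowest shENO1 library and the highest wild type library were close, and the log2 difference was 0.16 (SE 0.11). ATP2A2, which encodes the widely expressed SERCA2, lies on the plus strand at chr12:110280756-110351093. It was at 87.3, 86.7 and 130 FPKM in shENO1, against 75.8, 76.5 and 129 FPKM in wild type. The groups overlapped, with a log2 difference of 0.13 (SE 0.25), and most of the spread came from the libraries numbered 3. ATP2A1, the SERCA1 gene of skeletal muscle, is given with the other pumps below.

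**Figure D3:**
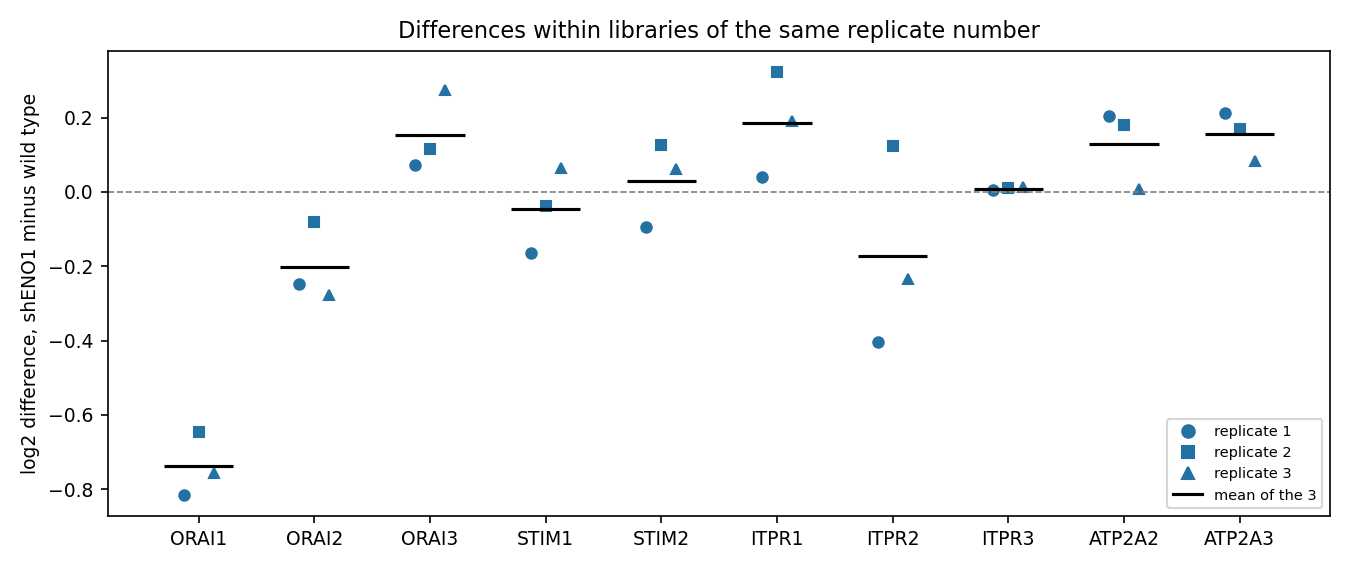
Log2 difference in log2(FPKM + 0.5), shENO1 minus wild type, for each of the 10 genes within libraries of replicate number 1 (circle), 2 (square) and 3 (triangle), with a bar at their mean. ORAI1 lies between -0.81 and -0.65, and the means of the other 9 genes lie between -0.20 and 0.18.

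Over all genes, limma called 0 of 17870 genes (0.0%) when an adjusted p under 0.05 and a difference over 2-fold were both required. An unadjusted p under 0.05 was found for 353 genes (1.98%). Accordingly 0 of the 10 genes was called. ENO1 itself was not called in this fit, with a log2 difference of -2.14 (limma adjusted p = 0.518). A count of 0 therefore does not show that no gene differed. The study reported genes past the same thresholds with DESeq2 on reads. With the replicate number as a block, limma called 1 gene (0.0056%), ENO1. The groups were free of overlap in the lower direction for 586 genes (3.28%) and in the higher direction for 485 genes (2.71%), or 1071 genes (5.99%) in either direction. Among the 10 genes this held for 1 in each direction, ORAI1 and ATP2A3. Of the 10 genes 2 were lower and 5 were higher in shENO1 in 3 of 3 same-numbered pairs, where the shares over all genes tested were 15.8% and 14.1%. Since ORAI1 was chosen for this comparison, nothing further is read from these counts. The median log2 difference was 0.02 for the 10 genes and -0.0036 for all genes tested.

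In order of the mean over all 6 libraries, the genes ran ATP2A2 (97.4 FPKM), ATP2A3 (77.8 FPKM), ORAI2 (46.9 FPKM), ITPR3 (38.6 FPKM), ITPR1 (29.6 FPKM), STIM1 (26.4 FPKM), ORAI3 (21.3 FPKM), ITPR2 (19.5 FPKM), ORAI1 (15.2 FPKM) and STIM2 (12.2 FPKM). Ranges of neighbours in this order were separate at 2 places, between ATP2A3 and ORAI2 and between ITPR3 and ITPR1, and overlapped everywhere else. The place of ORAI1 in this order differed by group. ORAI1 was above STIM2 in 1 of 3 shENO1 libraries, with means of 11.3 FPKM for ORAI1 and 12.3 FPKM for STIM2, and in 3 of 3 wild type libraries, with means of 19.1 FPKM for ORAI1 and 12.1 FPKM for STIM2. ITPR2 was above ORAI1 in 3 of 3 shENO1 libraries and in 2 of 3 wild type libraries.

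In 8 of the 10 genes, all but ORAI1 and ATP2A3, the library numbered 3 differed from the other libraries of its group by more than shENO1 differed from wild type. In both groups, 4 of the 10 genes were highest in the library numbered 3 and 5 were lowest there, where the shares over all genes tested were 26.4% and 29.5%. ATP2A2 in library 3 exceeded the mean of libraries 1 and 2 by 0.57 in shENO1 and by 0.76 in wild type on the log2 scale, and ORAI2 did so by 0.39 and 0.51. ORAI3 was lower in library 3 by a log2 difference of -0.34 in shENO1 and -0.52 in wild type, and ITPR1 by -0.41 and -0.42. For ORAI1 the same measure was 0.18 in shENO1 and 0.21 in wild type, smaller than its difference between groups. ATP2A3 was the 1 gene of the 10 whose sign differed between the groups, at -0.07 in shENO1 and 0.03 in wild type. The labels do not say what the replicate number marks, so these values carry no test. Without both libraries numbered 3, the log2 difference of ORAI1 between groups was -0.73.

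**Figure D4:**
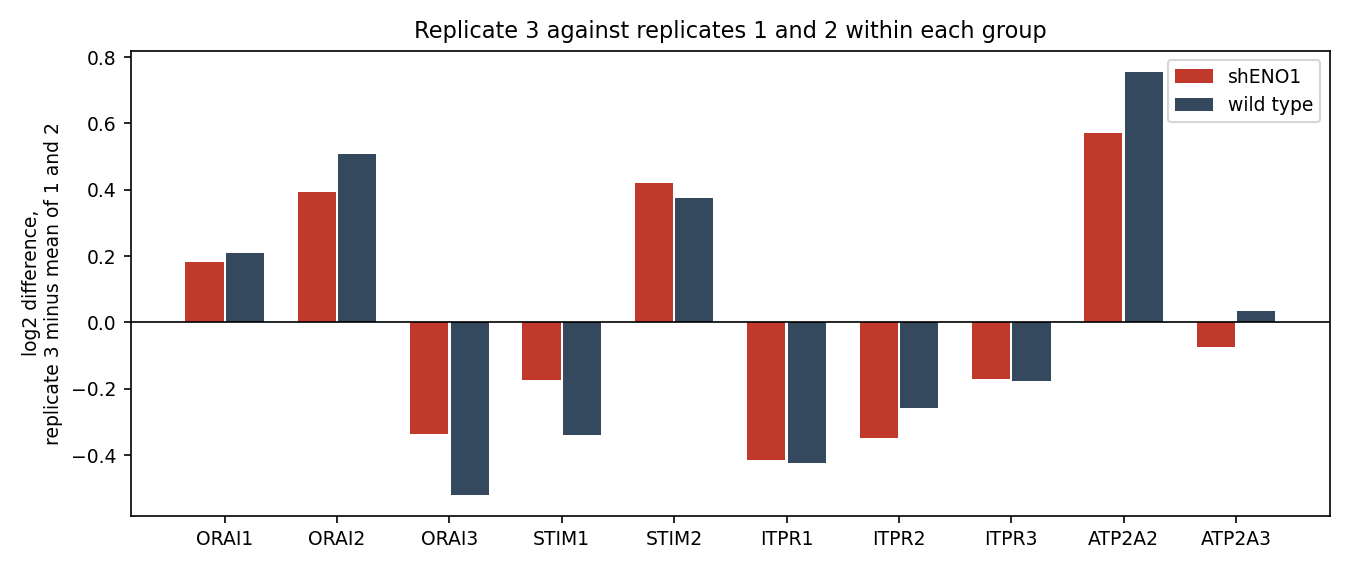
Log2 difference between the library numbered 3 and the mean of the libraries numbered 1 and 2, in log2(FPKM + 0.5), for shENO1 (red, left bar) and wild type (dark blue, right bar). ATP2A2, ORAI2, STIM2 and ORAI1 are above 0 in both groups, and ORAI3, STIM1 and the 3 IP3 receptor genes are below 0 in both.

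Reads from overlapping genes can be shared between them, and the sources used here do not say whether counting used strand. Release 29 places 23 genes over the spans of the 10, of which 14 lie on the opposite strand. UQCC2, a mitochondrial assembly factor gene that overlaps ITPR3 on the opposite strand, was at 33.2, 36.3 and 46.3 FPKM in shENO1, against 29.7, 39.6 and 38.2 FPKM in wild type. The other 22 reached at most 8.11 FPKM, which was ALKBH4 over ORAI2. ORAI1, ATP2A2 and ATP2A3 had 0 overlapping genes.

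The wider machinery was read from 8 lists with 108 genes, of which 86 were tested. By limma, 0 of the 86 were called higher and 0 were called lower, each with an adjusted p of 0.9999, and 0 were called with the replicate block. Their log2 differences lay between -0.43 and 0.49, so none reached the fold threshold of a call. As the fit without the block missed ENO1 too, these counts do not show that the genes were unchanged. An unadjusted p under 0.05 was found for 1 of them, MCUB. The groups did not overlap for 2 genes in the lower direction and 4 in the higher direction (2.33% and 4.65% of the 86, where the shares over all genes tested were 3.28% and 2.71%), namely CRACR2B and RCAN1, and MCUB, SYK, IRAG1 and NFATC3. The median log2 difference was 0.01 over the 86 genes.

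Regulators of store-operated entry had 12 tested genes, 5 below and 7 above 0, with a median log2 difference of 0.01. SARAF, an inhibitor of STIM activity, was at 137 ± 28.0 FPKM in shENO1 and 126 ± 25.5 FPKM in wild type, and TMCO1, a calcium channel of the reticulum, at 82.5 ± 23.0 and 82.3 ± 25.6 FPKM. CRACR2B, an EF-hand protein that binds the ORAI1 complex, was at 13.5, 13.3 and 11.04 FPKM in shENO1, against 16.1, 18.6 and 13.7 FPKM in wild type. Its groups did not overlap, with a log2 difference of -0.34 (SE 0.17). ORMDL3, a regulator of sphingolipid synthesis in the reticulum, was at 18.4 ± 2.01 FPKM in shENO1 and 21.5 ± 4.74 FPKM in wild type (SD, n = 3 each, here and for the lists that follow).

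Other pumps and exchangers had 8 tested genes, 5 below and 3 above 0, with a median of -0.07. The Golgi pump gene ATP2C1 was at 56.7 ± 1.04 FPKM in shENO1 and 59.3 ± 9.06 FPKM in wild type, and the plasma membrane pump gene ATP2B4 at 41.9 ± 11.99 and 39.0 ± 9.45 FPKM. ATP2A1 was at 1.10 ± 0.420 FPKM in shENO1 and 0.631 ± 0.221 FPKM in wild type, and ATP2B3, a plasma membrane pump gene, at 1.39 ± 0.674 and 1.88 ± 0.629 FPKM. Both low genes overlapped between groups. Other release channels and their partners had 9 tested genes, 7 below and 2 above 0, with a median of -0.06. The endolysosomal channel genes TPCN2 and TPCN1 led this list, at 26.5 ± 3.21 and 19.2 ± 1.82 FPKM in shENO1, against 30.5 ± 7.71 and 21.9 ± 5.97 FPKM in wild type. IRAG1, which encodes a protein that binds ITPR1 and is listed under its older symbol MRVI1, was at 0.641, 1.40 and 0.680 FPKM in shENO1, against 0.622, 0.556 and 0.590 FPKM in wild type.

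Mitochondrial calcium uptake had 10 tested genes, 3 below and 7 above 0, with a median of 0.06. MCU, the pore of the mitochondrial uniporter, was at 13.05, 20.9 and 20.6 FPKM in shENO1, against 11.8, 11.7 and 14.6 FPKM in wild type. MCUB, its paralogue with an inhibitory role, was at 18.7, 22.1 and 19.1 FPKM in shENO1, against 16.6, 16.0 and 14.0 FPKM in wild type. MCU overlapped between groups through shENO1 replicate 1 and MCUB did not overlap, with log2 differences of 0.48 (SE 0.22) and 0.35 (SE 0.14). The outer membrane channel genes VDAC3 and VDAC1 were at 163 ± 33.5 and 141 ± 31.0 FPKM in shENO1, against 141 ± 38.8 and 149 ± 29.8 FPKM in wild type.

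The route from the B-cell receptor to phospholipase C had 9 tested genes, 3 below and 6 above 0, with a median of 0.01. Its receptor end was nearly missing, as CD79B and the kinase gene BLK were listed at 0 in all 6 libraries and CD79A was at 1.26 ± 0.362 FPKM in shENO1 and 0.897 ± 0.489 FPKM in wild type. Several of its kinases and adaptors that other blood cells also use were present, while the adaptor gene BLNK reached at most 0.396 FPKM and was not tested. PIK3CD, a phosphoinositide kinase gene, was at 137 ± 21.9 FPKM in shENO1 and 149 ± 37.5 FPKM in wild type, and the adaptor gene PIK3AP1 at 86.1 ± 10.02 and 85.7 ± 11.8 FPKM. SYK, a tyrosine kinase gene, was at 68.5, 63.2 and 66.7 FPKM in shENO1, against 56.9, 58.3 and 58.2 FPKM in wild type. Its groups did not overlap, with a log2 difference of 0.19 (SE 0.11). Other genes of IP3 production had 11 tested members, 4 below and 7 above 0, with a median of 0.04. PLCB2, a phospholipase C of blood cells, was at 77.3 ± 5.28 FPKM in shENO1 and 81.7 ± 11.9 FPKM in wild type, and GNAQ, the G protein subunit that activates such enzymes, at 30.7 ± 3.05 and 25.7 ± 4.28 FPKM. PLCD1 was at 1.12 ± 0.317 FPKM in shENO1 and 1.70 ± 0.517 FPKM in wild type.

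Calcium-binding proteins of the endoplasmic reticulum had 12 tested genes, 6 below and 6 above 0, with a median of 0.0019. CALR, the main calcium buffer of the store, was at 495, 575 and 1241 FPKM in shENO1, against 408, 549 and 1338 FPKM in wild type, so that its spread followed the replicate number. CANX was at 261 ± 66.5 FPKM in shENO1 and 280.3 ± 86.5 FPKM in wild type, RCN1 at 16.1 ± 0.943 and 18.6 ± 5.59 FPKM, and RCN3 at 5.16 ± 0.416 and 6.28 ± 0.951 FPKM. Calcineurin, NFAT and calmodulin had 15 tested genes, 3 below and 12 above 0, with a median of 0.08. CALM2 was at 311 ± 59.6 FPKM in shENO1 and 279 ± 71.4 FPKM in wild type, CALM3 at 137 ± 8.53 and 119 ± 9.09 FPKM, and PPP3R1, the regulatory subunit of calcineurin, at 193 ± 10.9 and 185 ± 3.73 FPKM. RCAN1, a calcineurin regulator whose transcription NFAT can drive, was at 17.5, 16.2 and 16.8 FPKM in shENO1, against 20.7, 20.9 and 19.9 FPKM in wild type. Its groups did not overlap, with a log2 difference of -0.28 (SE 0.12). NFATC3, an NFAT transcription factor gene, was at 38.9, 38.3 and 43.3 FPKM in shENO1, against 37.4, 37.04 and 38.2 FPKM in wild type.

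**Figure D5:**
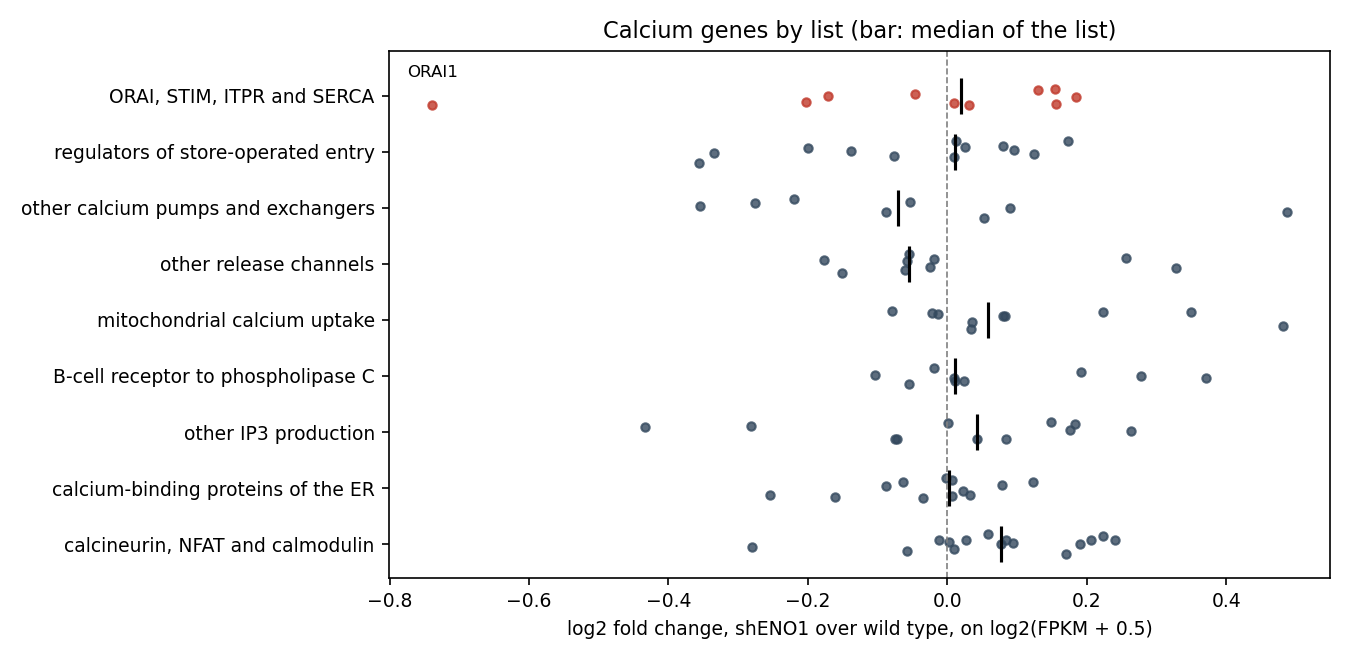
Log2 fold change, shENO1 over wild type, of each tested gene on the log2(FPKM + 0.5) scale, with the 10 store-operated entry genes in red at the top, the 8 wider lists in dark blue below, and a black bar at each median. ORAI1 at -0.74 lies apart from the others, and the 86 genes of the wider lists lie between -0.43 and 0.49.

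The genes whose profile was most like that of ORAI1 were sought among 10475 protein-coding genes of at least 2 FPKM on average. Each gene was centred on its own mean over the 6 libraries on the log2(FPKM + 0.5) scale, and the root mean square difference from ORAI1 was taken. The closest were HRH1 (0.105), which encodes the histamine H1 receptor, INAVA (0.123), STMN3 (0.134), DDB1 (0.136), an adaptor of a ubiquitin ligase, and DNAL1 (0.145), against a median of 0.435 over all candidates. HRH1 was at 1.95, 1.90 and 2.45 FPKM in shENO1, against 3.08, 3.17 and 4.23 FPKM in wild type. DDB1 was at 47.3, 60.7 and 72.2 FPKM in shENO1, against 89.6, 99.2 and 121 FPKM in wild type. As ORAI1 differed between groups, its closest profiles differ in the same direction by construction. Of the other 9 genes ORAI2 was the most like ORAI1 (place 349) and ITPR1 the least (0.549, place 8896).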

How the data were processed

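The authors deposited 1 table of FPKM values, scaled by transcript length and library size. STAR, Cufflinks and Cuffnorm appear in the submitters' processing notes, beside the genome builds GRCh38 and hg38. Versions, library scaling and strand use are not given in the sources used here. The study called genes with DESeq2 on reads, which FPKM does not allow. The absolute depth is unknown. Steps among low values put the depth relative to wild type replicate 1 at 1.02 and 1.14 in wild type replicates 2 and 3, and at 1.04, 1.19 and 1.27 in shENO1 replicates 1 to 3, but only 11.7% to 15.5% of the genes used lay within 0.02 log2 units of each estimate. No counts were rebuilt.

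Genes were looked up by the symbols of the deposited data. Coordinates and gene types came from GENCODE release 29, in which 58010 of 58273 identifiers were found once version numbers were dropped. Overlapping and neighbouring genes took their names from release 29. The 17870 genes that reached 0.5 FPKM in 3 or more of the 6 libraries were tested on log2(FPKM + 0.5) by two-sided limma (limma 3.58.1, R 4.3.3) without a covariate, using its intensity trend. The Benjamini-Hochberg adjustment covered all 17870 genes. The fold scale understates the change of low genes. A call required an absolute log2 fold change over 1 and an adjusted p under 0.05. The script was tested on simulated data with known folds. Recovery of the changed genes was required only where the simulated spread was set below that of the real libraries.

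Same-numbered libraries deviated together from their group means, with correlations across genes of 0.312, 0.176 and 0.491 for numbers 1, 2 and 3, against -0.390 to 0.144 for other pairs. This pairing comes from the values and not from the labels, and the model was also fitted with a replicate block.

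The 10 genes, the 8 wider lists, the markers and the tests were chosen with earlier results of these data known. Besides the 10 genes, ENO1, the overlapping genes and the neighbours of ORAI1, the text names from each wider list the 2 most abundant tested genes and the 2 with the smallest p, and the 5 genes most like ORAI1. BLK, BLNK, CD79B, NFATC3 and the other channels of the closing section were named after their values were seen. Alternatives covered the pseudocount, the filter, the scaling, the block and left-out libraries.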

Additional observations from a re-analysis of the deposited data

How the results depend on the processing

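The count of genes called by limma was 0 with a pseudocount of 0.1 or 1, with no filter, with a filter at 1 FPKM, with FPKM sums made equal, with median ratio scaling, and in the 6 fits that left out 1 library (lowest 0, highest 0). It was 1 with the replicate block (ENO1, limma adjusted p = 0.00374) and 2 with both libraries numbered 3 left out (ENO1 and AL590762.4, limma adjusted p = 0.0291 for both), where each group has 2 libraries. The cause was not tested. For the 86 genes of the wider lists it was 0 in all 14 alternatives. An unadjusted p under 0.05 was found for 353 genes, 1349 with the replicate block, 743 with no filter, and between 281 and 698 when 1 library was left out.

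The log2 difference of ORAI1 ran from -0.80 (without shENO1 replicate 3) to -0.67 (without wild type replicate 3). In 5 of the 10 genes the difference kept its sign in all 14 alternatives. In ORAI3, STIM1, STIM2, ITPR3 and ATP2A2 it changed sign, with 9 changes summed over these genes, all in fits that left out 1 library. The value of ORAI2 was -0.03 and that of ITPR1 was 0.04 without wild type replicate 3. The median log2 difference of all genes was 0.04 once FPKM sums were made equal. FPKM gives no counting error, so precision is limited by 3 libraries per group.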

Other observations

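Other ion channels that admit calcium or sustain its entry in blood cells were read from a list of 12 genes chosen after the data had been seen. By limma, 0 of the 11 tested were called, with adjusted p-values of 0.9999, and all 11 overlapped between groups. PIEZO1, a mechanically gated channel gene, was at 107, 102 and 108 FPKM in shENO1, against 120.1, 115 and 90.7 FPKM in wild type. TRPM7 was at 72.0, 63.2 and 66.4 FPKM in shENO1, against 71.6, 56.2 and 59.9 FPKM in wild type. TRPM2, a channel gated by ADP-ribose, was at 40.0, 37.7 and 69.4 FPKM in shENO1, against 48.0, 50.1 and 72.9 FPKM in wild type, and was highest in the library numbered 3 of both groups. The ATP-gated channel gene P2RX7 went the other way by replicate number, at 29.7, 22.6 and 9.69 FPKM in shENO1, against 35.8, 16.9 and 10.3 FPKM in wild type. The potassium channel gene KCNN4, whose product keeps the membrane potential that draws calcium in, was at 28.96, 25.4 and 32.9 FPKM in shENO1, against 29.01, 31.6 and 30.7 FPKM in wild type. HVCN1, a proton channel gene, did not pass the filter and peaked at 0.083 FPKM.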
